A study of Mus musculus with 30 samples.

Results

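Feedback genes of NF-kB, the family of transcription factors that switches on inflammatory genes, were followed through microglia of mice in which *Bin1* was deleted. The 10 genes were *Nfkbia*, *Nfkbie*, *Nfkbiz*, *Bcl3*, *Tnfaip3*, *Ier3*, *Nfkb1*, *Rel*, *Relb* and *Tnf*, out of 47643 genes in the deposited table. They were chosen by their FPKM, because *Ier3* and *Nfkbiz* were higher in male homozygous knockout mice than in male wild-type mice, so the values of that comparison are a description here and carry no test. All 10 genes passed the filter on low values and were among the 16897 genes tested. In short, *Nfkbiz*, *Ier3* and *Tnf* were higher in every male knockout library than in any male wild-type library, in the comparison that chose the genes and where 2.56% of all genes tested did the same. The other 7 genes did not separate in this way, and none of the 10 passed the thresholds in female mice.

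In resting cells the NF-kB dimers, which the products of *Nfkb1*, *Rel* and *Relb* help to build, are held in the cytoplasm by inhibitors of the IκB family such as those encoded by *Nfkbia* and *Nfkbie*. Signals from Toll-like receptors or from the receptors of the cytokine TNF destroy the inhibitors, the dimers enter the nucleus, and among the genes they switch on are those of their own inhibitors, so that the signal limits itself. In microglia, the resident macrophages of the brain, this loop is known for its part in the response to bacterial products and to injury.

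The 30 libraries were made from the RNA of microglia sorted by FACS as CD11b+ CD45med cells from 3 month-old mice. Each library is 1 mouse, labelled with a genotype, a sex and a mouse number, as in Homo-M-0093. Homo mice (5 males, 5 females) were Bin1 flox/flox::Cx3Cr1-Cre+, Het mice (6 males, 5 females) were Bin1 wt/flox::Cx3Cr1-Cre+, and WT mice (5 males, 4 females) were Bin1 wt/flox without Cre. A floxed *Bin1* allele was therefore shared by all mice, and the Cre allele, expressed from the promoter of *Cx3cr1*, cannot be told apart from the loss of *Bin1* in a comparison with WT mice. The protocol filed with the samples instead describes cultured microglia of newborn pups given Tau, LPS and ATP. LPS is itself an activator of NF-kB, and which description holds was not tested.

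Mean FPKM (fragments per kilobase of transcript, relative to library size) of *Bin1* was 258.3 in WT, 120 in Het and 49.7 in Homo males, and 253, 134 and 41.2 in the females. That of *Cx3cr1* was 2043 in WT, 933 in Het and 928 in Homo males, and 2061, 917 and 1168 in the females. Each comparison with WT mice thus also sets a lower against a higher level of *Cx3cr1*, whose part in the differences was not tested. Values of *Bin1* in Het-F-0206 (42.7) and Het-M-0199 (51.8) were in the range of the Homo mice of their sex, against these labels, and *Cx3cr1* in Het-F-0206 was at 13.9 FPKM. Main results of Het against WT mice are therefore given with and without both libraries. Other comparisons that use Het mice are mostly given with them. Summed FPKM of 10 microglial markers ranged from 19746 to 28417, and the summed FPKM of 4 T cell markers was at most 0.567. Markers of other cells reached higher sums in single libraries. The highest were 433 FPKM for choroid plexus, 349 for neutrophils, 42.3 for border macrophages and 38.3 for B cells, all in WT males. For oligodendrocytes it was 120 FPKM, in a Het male. The B cell sum was almost all *Cd79b*, with a mean of 30.3 FPKM over the 30 libraries, against 0.137 for *Cd79a* and 0.0228 for *Ms4a1*. Group medians of this sum were 27.5 to 34.6 FPKM, so it was not confined to single libraries. Relative depth, with the median library at 1, was between 0.670 and 1.41. Mouse numbers up to that of WT-F-0122 (early; all others are late) belonged to 3 of 5 Homo males, 2 of 6 Het males and 1 of 4 WT females, and to no WT male, Het female or Homo female, so the number range and the genotype overlap in males.

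Promoter sequences are shown for the 2 genes of the loop that stood highest in male Homo mice and have a promoter entry, *Ier3* and *Tnf*, and for the inhibitors *Nfkbia* and *Tnfaip3*, whose values did not follow them. They are the 250 bases before the start of transcription in RefSeq (GRCm38.p6), printed along the strand of the gene, with matches to the κB consensus, the DNA motif that NF-kB dimers bind, in capitals. They lie at chr17:35821463-35821712 (plus strand, *Ier3*), chr17:35202008-35202257 (minus strand, *Tnf*), chr12:55492648-55492897 (minus strand, *Nfkbia*) and chr10:19015411-19015660 (minus strand, *Tnfaip3*).
Ier3 promoter: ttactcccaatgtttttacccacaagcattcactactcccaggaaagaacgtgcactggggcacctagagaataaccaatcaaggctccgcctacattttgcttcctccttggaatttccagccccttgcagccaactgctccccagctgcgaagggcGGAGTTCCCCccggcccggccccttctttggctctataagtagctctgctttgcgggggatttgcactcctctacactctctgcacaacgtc
Tnf promoter: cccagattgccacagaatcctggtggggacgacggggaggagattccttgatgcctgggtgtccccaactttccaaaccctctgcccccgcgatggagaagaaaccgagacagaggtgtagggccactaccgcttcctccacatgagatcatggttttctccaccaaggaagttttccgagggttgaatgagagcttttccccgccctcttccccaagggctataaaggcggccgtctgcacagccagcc
Nfkbia promoter: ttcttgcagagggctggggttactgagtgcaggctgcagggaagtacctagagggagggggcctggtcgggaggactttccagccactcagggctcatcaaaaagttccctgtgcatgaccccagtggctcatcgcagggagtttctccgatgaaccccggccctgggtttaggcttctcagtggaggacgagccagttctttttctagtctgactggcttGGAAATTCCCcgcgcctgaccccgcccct
Tnfaip3 promoter: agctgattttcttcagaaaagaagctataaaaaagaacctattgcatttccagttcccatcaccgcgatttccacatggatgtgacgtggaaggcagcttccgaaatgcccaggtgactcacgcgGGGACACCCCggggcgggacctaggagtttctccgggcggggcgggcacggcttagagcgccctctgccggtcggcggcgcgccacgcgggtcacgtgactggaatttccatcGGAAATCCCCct
The 7 genes with an entry have 8 promoters. A match on either strand was found in 5 of the 8, those shown above with capitals and those of *Nfkbie* and *Rel*, and was not found in this window of *Bcl3*, of *Tnf* or of the second promoter of *Tnfaip3* (chr10:19011964-19012213). Over all 32851 promoters of the same length, 3.9% held a match. *Ier3* held GGAGTTCCCC 92 to 83 bases before its start, *Nfkbia* held GGAAATTCCC 29 to 20 bases before its start, and *Tnfaip3* held GGGACACCCC and GGAAATCCCC. *Nfkbiz*, *Nfkb1* and *Relb* were not searched.

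FPKM are per length, so the levels of the genes can be set side by side. Over the 30 libraries the mean was 71.0 FPKM for *Nfkb1* and 66.2 FPKM for *Nfkbia*, and their ranges of 1 SD overlapped, with *Nfkb1* higher in 18 libraries. *Nfkbie* (24.0 FPKM) and *Tnfaip3* (20.7 FPKM) came next and also overlapped, as did *Relb* (14.2 FPKM) and *Rel* (12.1 FPKM). *Ier3* (5.28 FPKM), *Nfkbiz* (4.36 FPKM), *Bcl3* (2.55 FPKM) and *Tnf* (2.14 FPKM) were the lowest, and each overlapped with its neighbour in this order. No member was at 0 in any library. The plot of the values in each library shows that the spread relative to the mean was large in the low genes and small in *Nfkb1*.

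**Figure D1:**
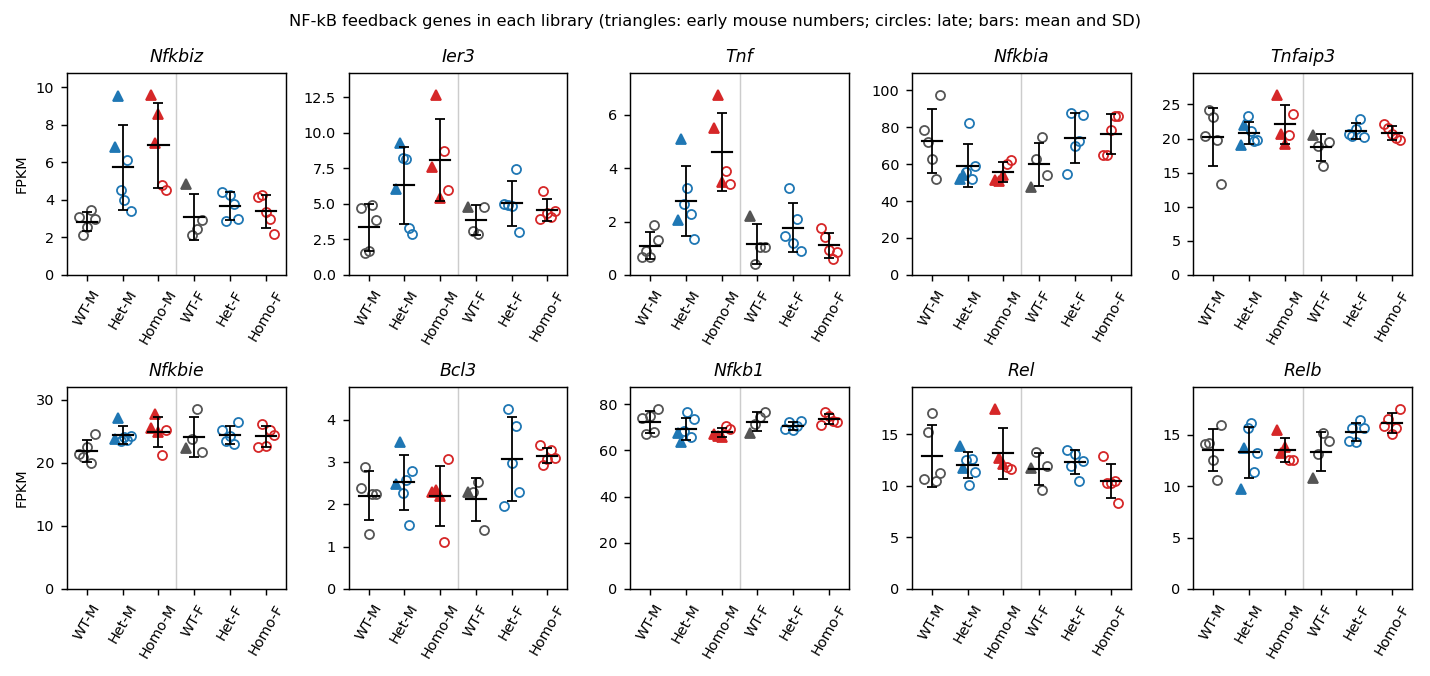
FPKM (vertical axes, from 0) of the 10 genes in each of the 30 libraries, by genotype and sex (M, F). Triangles are early and circles late mouse numbers, and bars give the mean and SD of each group. The 5 Homo male libraries lie above all 5 WT male libraries for *Nfkbiz*, *Ier3* and *Tnf*, while *Nfkb1* stays between 63.9 and 78.1 FPKM in all groups.

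Taking the inhibitors first, *Nfkbia* (ENSMUSG00000021025, chromosome 12, 55489410 to 55492647, minus strand, GRCm38) encodes IκBα, the inhibitor that NF-kB itself re-makes within the loop. Its FPKM was 78.3, 72.2, 62.5, 52.2 and 97.4 in the WT males and 51.3, 50.9, 53.9, 60.2 and 62.3 in the Homo males. In Homo males 2 of the 5 values (51.3 and 50.9) were below the lowest WT value of 52.2, the other 3 were in the lower part of the WT range, and the groups overlapped. In females it was 47.7, 63.0, 74.8 and 54.1 in WT and 64.7, 65.0, 78.5, 86.1 and 86.2 in Homo mice, so there the Homo mean was the higher, at 76.1 ± 10.7 (SD, n = 5) against 59.9 ± 11.8 (SD, n = 4), again with overlap. *Nfkbia* differed by -0.44 (SE 0.17) between Homo and WT males, a log2 difference given without a test, and by 0.35 (SE 0.18) in females (adjusted p = 1). All log2 differences are on the scale of log2(FPKM + 0.1) after scaling between libraries, which understates the change of low genes, and adjusted p-values are from limma over all genes tested, with Benjamini-Hochberg adjustment.

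*Nfkbie* (chromosome 17, 45555703 to 45563169, plus strand) encodes IκBε, a second inhibitor with the same role. It was among the steadiest genes, at 21.8 ± 1.75 (SD, n = 5) FPKM in WT and 24.9 ± 2.38 (SD, n = 5) FPKM in Homo males. The log2 difference between them was 0.10 (SE 0.08). In females the means were 24.1 ± 3.10 (SD, n = 4) and 24.2 ± 1.62 (SD, n = 5), a log2 difference of 0.01 with a 95% confidence interval from -0.17 to 0.19.

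*Nfkbiz* (ENSMUSG00000035356, chromosome 16, 55811375 to 55838899, minus strand) encodes IκBζ, a nuclear member of the family that is needed for a set of late inflammatory genes rather than holding NF-kB in the cytoplasm. Its FPKM was 3.10, 2.12, 2.56, 3.47 and 2.97 in the WT males and 9.60, 7.03, 8.60, 4.79 and 4.51 in the Homo males. Every Homo male was above every WT male, and the 3 highest of the Homo males were those with early numbers. Het males spanned 3.43 to 9.56 (median 5.32) and reached into the WT range. The log2 difference was 1.13 (SE 0.23) for Homo and 0.85 (SE 0.22) for Het males against WT, while in females it was 0.17 (95% confidence interval -0.34 to 0.67) for Homo and 0.29 (95% confidence interval -0.21 to 0.80) for Het mice. The female libraries held 4.83, 2.11, 2.44 and 2.92 FPKM in WT and 4.15, 4.27, 3.37, 2.96 and 2.19 FPKM in Homo mice, with the highest of the WT values in the early numbered WT-F-0122.

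*Bcl3* (chromosome 7, 19808462 to 19822770, minus strand), an atypical IκB that can act with NF-kB subunits in the nucleus, followed another pattern. Its FPKM was 2.28, 2.29, 2.51 and 1.38 in the WT females and 3.39, 2.93, 3.06, 3.29 and 3.09 in the Homo females. All 5 Homo females were above all 4 WT females, which held for 1.65% of all genes tested, and none of the 10 genes was below them all (0.663%). In Het females none of the 10 was above (1.58%) or below (0.633%) all WT females. The log2 difference was 0.58 (SE 0.27), and it did not pass after adjustment (adjusted p = 1, limma). In males the groups overlapped, at 1.29 to 2.87 FPKM in WT and 1.11 to 3.06 FPKM in Homo mice, with a log2 difference of -0.11 (SE 0.25). Exons of an annotated gene on the opposite strand, *Gm16175*, overlap those of *Bcl3*. The counting was not stated to use strand, so reads of both cannot be told apart.

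*Tnfaip3* (chromosome 10, 19000910 to 19015657, minus strand) encodes A20, an enzyme that edits ubiquitin chains and ends signalling upstream of the inhibitors. It did not follow the pattern of *Nfkbiz*. Its FPKM was 20.4, 24.1, 23.2, 19.8 and 13.3 in the WT males and 26.4, 20.7, 19.3, 20.5 and 23.6 in the Homo males. The WT values spanned most of the Homo values, with WT-M libraries both below and among them, and the log2 difference was 0.07 (SE 0.13). In females it was 0.16 (95% confidence interval -0.12 to 0.44) for Homo and 0.17 (95% confidence interval -0.11 to 0.45) for Het mice.

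*Ier3* (ENSMUSG00000003541, chromosome 17, 35821684 to 35822923, plus strand) is an early response gene that NF-kB switches on and whose product affects cell survival. Its FPKM was 4.73, 1.52, 1.71, 4.93 and 3.85 in the WT males and 7.59, 12.7, 5.42, 8.71 and 5.94 in the Homo males. The lowest Homo male, Homo-M-0109, was only just above the highest WT male, WT-M-0202. Het males ranged from 2.87 to 9.28 (median 7.10), with 2 of the 6 inside the WT range. Log2 differences from WT were 1.26 (SE 0.33) in Homo and 0.85 (SE 0.31) in Het males. In Homo females *Ier3* was 3.96 to 5.91 FPKM against 2.85 to 4.79 FPKM in WT females, a log2 difference of 0.26 with a 95% confidence interval from -0.46 to 0.97.

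Of the 3 subunit genes *Nfkb1* varied little, while *Rel* ranged from 8.35 to 17.5 FPKM and *Relb* from 9.74 to 17.5 FPKM over the 30 libraries. *Nfkb1* (chromosome 3, 135584655 to 135691547, minus strand), which encodes p105 and its product p50, was 72.4 ± 4.70 (SD, n = 5) FPKM in WT, 69.3 ± 4.75 (SD, n = 6) FPKM in Het and 67.9 ± 1.99 (SD, n = 5) FPKM in Homo males. *Rel* (chromosome 11, 23736847 to 23770970, minus strand), which encodes c-Rel, was 12.9 ± 3.02 (SD, n = 5) FPKM in WT and 13.2 ± 2.45 (SD, n = 5) FPKM in Homo males. *Relb* (chromosome 7, 19606217 to 19629438, minus strand), a subunit of the non-canonical pathway, was 13.5 ± 2.02 (SD, n = 5) FPKM in WT and 13.5 ± 1.19 (SD, n = 5) FPKM in Homo males. In each case the groups overlapped, and log2 differences of Homo from WT males were -0.17 (SE 0.08) for *Nfkb1*, -0.04 (SE 0.14) for *Rel* and -0.07 (SE 0.14) for *Relb*. In Homo females the log2 differences from WT were 0.02 (SE 0.09), -0.16 (SE 0.15) and 0.28 (SE 0.15) in the same order, with adjusted p of 1 for each.

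*Tnf* (ENSMUSG00000024401, chromosome 17, 35199381 to 35202007, minus strand), the cytokine that is both a target and a trigger of NF-kB, had the lowest mean of the 10 genes over the 30 libraries and, in males, the largest log2 difference. Its FPKM was 0.691, 0.906, 0.681, 1.88 and 1.30 in the WT males and 5.51, 6.75, 3.47, 3.90 and 3.40 in the Homo males. The lowest Homo male was well above the highest WT male. Het males ranged from 1.34 to 5.11 (median 2.47), and 5 of the 6 were above every WT male. Log2 differences from WT were 1.95 (SE 0.37) in Homo and 1.19 (SE 0.36) in Het males. In females *Tnf* was 2.21, 0.410, 1.04 and 1.04 FPKM in WT and 1.76, 1.41, 0.936, 0.608 and 0.857 FPKM in Homo mice, with no separation and a log2 difference of 0.04 (95% confidence interval -0.77 to 0.84).

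Counted together, 3 of the 10 genes (*Nfkbiz*, *Ier3* and *Tnf*) were above all WT males in all Homo males and 0 were below, against 2.56% of all genes above and 1.37% below. *Ier3* and *Nfkbiz* were named in the choice of the genes, so nothing is read from this count. In the same comparison 1.81% of all genes passed the thresholds (adjusted p below 0.05 and fold change above 1.5), 1.17% as higher and 0.645% as lower in Homo males. The median log2 difference of the 10 genes was 0.01, beside 0.03 over all genes tested, with 5 genes positive and 5 negative. Markers of neutrophils, which also express NF-kB targets, moved in the same comparison. Of 9 such markers 7 were tested and 4 fell in Homo males, and their summed FPKM was 43.9 to 349 in WT and 0 to 80.8 in Homo males, with *S100a8* at 0 in 3 of 5 Homo males. Of the 4 monocyte markers 2 had negative and 2 had positive log2 differences, the latter up to 0.67. Only *Chil3* of these was called, as lower (log2 difference -4.59, adjusted p = 0.0164, limma). The summed FPKM of the 4 monocyte markers was 5.86 to 18.5 in WT and 3.91 to 9.52 in Homo males. All 6 markers of border macrophages had negative log2 differences (median -1.05) with 0 called and 4 at an unadjusted p below 0.05, and their summed FPKM had overlapping ranges with medians of 37.6 in WT and 20.8 in Homo males. The 4 of the choroid plexus were negative as well (median -2.36, 0 called and 2 at an unadjusted p below 0.05). The part of these markers in the differences was not tested.

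**Figure D2:**
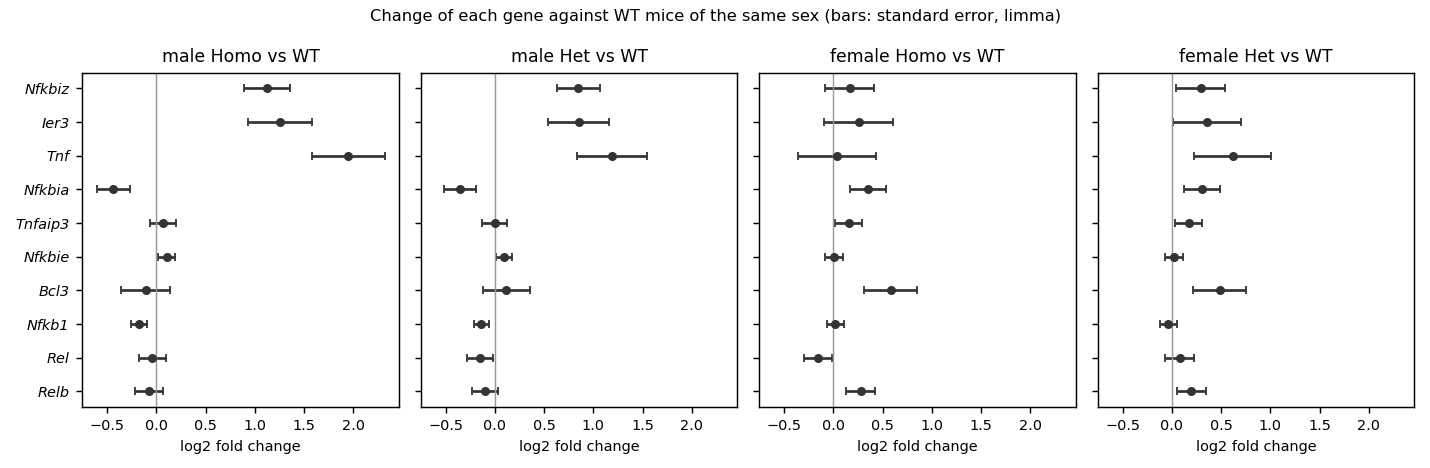
Log2 fold change (horizontal axes) of the 10 genes in Homo and Het mice against WT mice of the same sex, with the standard error from limma. In males *Nfkbiz*, *Ier3* and *Tnf* lie to the right in both genotypes, from 0.85 to 1.95, and *Nfkbia* lies to the left at -0.44 and -0.36; in females *Nfkbia* lies at 0.35 and 0.30.

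Whether mice that kept a *Bin1* allele showed the same was tested in male Het mice, which share the WT libraries of the choice with the Homo males. None of the 10 genes passed the thresholds, as against 0.154% of all genes (0.124% higher, 0.0296% lower). At an unadjusted p below 0.05 there were 4 of the 10, beside 14.2% of all genes, namely *Nfkbiz* (adjusted p = 0.109), *Tnf* (adjusted p = 0.167), *Ier3* (adjusted p = 0.270) and *Nfkbia* (adjusted p = 0.332), by limma. *Nfkbiz*, *Tnf* and *Ier3* had positive and *Nfkbia* negative log2 differences, the last of them -0.36 (SE 0.16). None of the 10 genes was above or below all WT males in all Het males, where 0.515% and 0.326% of all genes were. Without Het-M-0199 and Het-F-0206 the log2 differences were 0.92 for *Nfkbiz*, 1.11 for *Tnf*, 0.74 for *Ier3* and -0.47 for *Nfkbia*, and again 0 of the 10 genes passed.

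Female mice took no part in the choice and gave the independent comparison. None of the 10 genes passed in Homo against WT females (0.071% of all genes did, 0.0651% higher and 0.00592% lower), in Het against WT females (0.13%) or in Homo against Het females (0.0118%). At an unadjusted p below 0.05 there was 1 gene in Homo females, *Bcl3*, beside 3.49% of all genes, and 0 in Het against WT females (3.95%) and in Homo against Het females (2.06%), by limma. Only 1 WT female, WT-F-0122, has an early number, and without it the log2 differences of Homo from WT females were 0.38 for *Tnf*, 0.39 for *Nfkbiz*, 0.36 for *Ier3*, 0.24 for *Nfkbia* and 0.61 for *Bcl3* (adjusted p = 1 for each). That of *Tnf* was -0.33 without WT-F-0192. In Het females without WT-F-0122 it was 0.95 for *Tnf* (adjusted p = 0.922) and 0.52 for *Nfkbiz* (adjusted p = 0.890). With all libraries the intervals of the Homo females reached 0.67 for *Nfkbiz*, 0.97 for *Ier3* and 0.84 for *Tnf* on the log2 scale, beside differences of 1.13, 1.26 and 1.95 in the Homo males. The difference itself, the interaction of sex and genotype, was 1.91 (SE 0.54) for *Tnf*, 1.00 (SE 0.48) for *Ier3* and 0.96 (SE 0.34) for *Nfkbiz* in Homo mice. In late mice alone it was 1.37 for *Tnf*, 0.88 for *Ier3* and 0.32 for *Nfkbiz*, and 1.42, 0.77 and 0.33 when the range was a covariate. For *Nfkbia* it was -0.79 in all and -0.45 in late mice. The interaction includes the male comparison that the choice used and is given without a test. In Het mice, *Tnf* in females had a log2 difference of 0.62 (SE 0.39, adjusted p = 1), which was 0.38 without the pair of libraries that went against their labels, and the interaction with sex was 0.57 (adjusted p = 0.862) for *Tnf* and 0.56 (adjusted p = 0.860) for *Nfkbiz*. For *Nfkbia* the interaction in Het mice was -0.66 (SE 0.24, adjusted p = 0.860), and none of the 10 genes passed there. Outside the 10, no gene of the table passed in either interaction.

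Early and late mouse numbers were then compared within the 11 male Het and Homo libraries, with genotype as a term in the fit. *Nfkbiz* was the only one of the 10 genes to pass, where 7.42% of all genes did (5.96% higher and 1.46% lower in early mice). Its FPKM in Homo males was 9.60, 7.03 and 8.60 in the early and 4.79 and 4.51 in the late mice. In Het males it was 6.83 and 9.56 in the early and from 3.43 to 6.12 in the late mice. Early mice were above late mice in both genotypes, without overlap. The share of all genes that separate in this way was not counted, so nothing is read from it. The highest late value, 6.12, was in Het-M-0203. Its scaling factor, by which the FPKM of a library were divided, was 1.10, beside 1.04 to 1.15 in the early males. In the other late Het and Homo males the factor was 0.95 to 1.00, and in the early WT-F-0122 it was 1.01. Whether *Nfkbiz* follows the number range or this property of the libraries was not tested. *Nfkbiz* rose by 0.70 on the log2 scale (SE 0.15, adjusted p = 0.0243, limma), with a median of 0.10 over all genes. The call was lost without Het-M-0100 (adjusted p = 0.102), Het-M-0108 (0.0611), Homo-M-0093 (0.0543), Homo-M-0189 (0.0766) or Homo-M-0190 (0.0581), each of these an adjusted p of *Nfkbiz* from limma, and the log2 difference then lay between 0.59 and 0.81. With all 30 libraries in the fit it was 0.74 (adjusted p = 0.00108). The 5 Homo libraries that chose the gene are among the 11, and 3 of them are early, so these p-values are not independent of the choice. In the 6 Het males alone, which took no part in it, the log2 difference was 0.70 (SE 0.26, adjusted p = 0.285, limma), 0 of the 10 genes passed and 1 had an unadjusted p below 0.05, beside 16.7% of all genes.

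*Ier3* and *Tnf* were not called in this comparison. The log2 difference of early from late mice was 0.23 (SE 0.36, adjusted p = 0.679) for *Ier3* and 0.34 (SE 0.30, adjusted p = 0.455) for *Tnf*. *Tnf* was 3.40 and 3.90 FPKM in the late Homo males and from 3.47 to 6.75 FPKM in the early ones. *Nfkbia* and *Nfkb1* had lower values in early mice, by -0.37 (SE 0.12, adjusted p = 0.0651) and -0.24 (SE 0.08, adjusted p = 0.0645) on the log2 scale, and missed the threshold. *Nfkbia* was 50.9 to 54.0 FPKM in the 5 early and 51.7 to 82.2 FPKM in the 6 late Het and Homo males. The nuclear retained RNAs *Malat1* and *Neat1* moved with the number range as well. *Neat1* was 33.4 to 51.1 FPKM in the 5 early and 13.3 to 33.9 FPKM in the 6 late mice (log2 difference 1.14, adjusted p = 0.0208), and its call was lost without Het-M-0100 (adjusted p = 0.102), Het-M-0108 (0.0582) or Homo-M-0189 (0.0759). *Malat1* was 7970 to 12821 FPKM in early and 2628 to 8084 FPKM in late mice (log2 difference 1.05, adjusted p = 0.0497), and its call was lost (adjusted p of at most 0.175) without any 1 of the 11 libraries other than Het-M-0203 and Homo-M-0097. Of the cell type markers, the median log2 difference of early from late mice was -0.49 for the 10 of microglia, with *Olfml3* called lower, and 1.72 for 7 of neutrophils, with *S100a8* called higher. All 5 astrocyte markers had positive differences (median 1.10), with *Gja1* called higher. *Mbp* was called higher among 4 oligodendrocyte markers, of which 2 were positive and 2 negative. *Pf4* was called higher among 6 markers of border macrophages, 5 positive and 1 negative. *Pecam1* was called lower among 3 endothelial markers tested, 1 positive and 2 negative. The part of nuclear RNA and of other cells in the *Nfkbiz* result was not tested.

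All WT males had late numbers, so the male comparison was repeated among late mice and with the range as a covariate. In late mice alone (2 Homo and 5 WT males) the log2 difference was 0.70 (SE 0.24) for *Nfkbiz*, 1.24 (SE 0.44) for *Ier3* and 1.74 (SE 0.46) for *Tnf*. With the range as a covariate it was 0.68, 1.09 and 1.60. In all mice it was 1.13, 1.26 and 1.95. *Nfkbia* went from -0.44 to -0.22 and *Nfkb1* from -0.17 to -0.05 in late mice alone. In late Homo males the *Nfkbiz* values of 4.51 and 4.79 FPKM were above all 5 WT males, the highest of which was 3.47. The values of *Ier3* (5.94 and 8.71 FPKM) and of *Tnf* (3.40 and 3.90 FPKM) in these mice were above all WT males too. The share of all genes that separate so with 2 Homo males was not counted. These mice also took part in the choice of the genes, so nothing is read from this separation.

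**Figure D3:**
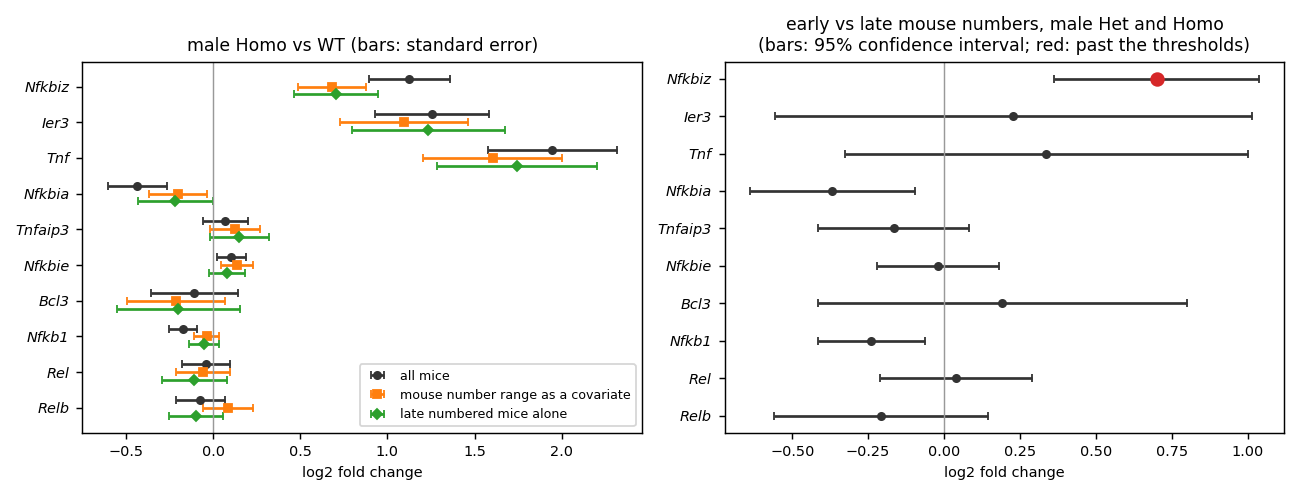
Left, log2 fold change of the 10 genes between male Homo and WT mice, fitted to all mice, with a term for the number range, or to late mice alone (bars, standard error). Right, log2 fold change of early against late mouse numbers in male Het and Homo mice with the 95% confidence interval, where *Nfkbiz* (red, 0.70) alone passed the thresholds. On the left, *Nfkbiz* is at 1.13 in all and 0.70 in late mice, and *Ier3* at 1.26 and 1.24.

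The other genes of the pathway were taken from lists of subunits, IκB proteins, ubiquitin and mRNA decay feedback, receptors and signalling, and target genes. Of these 80 genes, 71 were tested. The lists were drawn up with earlier results of these data known, so the p-values of their genes are not independent of that choice. In Homo against WT males 3 of the 71 rose (4.23%, where 1.17% of all genes did) and 0 fell (0.645% of all genes). At an unadjusted p below 0.05 there were 25, beside 22.5% of all genes. All 3 that rose were among the 29 target genes tested. *Cd40*, a receptor for T cell help, was 0.136 to 0.642 FPKM in WT and 0.619 to 1.76 FPKM in Homo males (log2 difference 1.49, adjusted p = 0.0319, limma). *Il6*, a cytokine gene, was 3.07 to 10.5 FPKM in WT and 8.70 to 16.6 FPKM in Homo males (log2 difference 0.90, adjusted p = 0.0352). *Il1a*, which encodes interleukin-1α, was 63.2 to 98.7 FPKM in WT and 104 to 128 FPKM in Homo males, with no overlap (log2 difference 0.60, adjusted p = 0.0267). The list of targets had a median log2 difference of 0.21, beside 0.03 for all genes, and that of receptors and signalling 0.03.

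The calls were sensitive to which libraries entered. The count of 3 became 0 without Homo-M-0093, WT-M-0176, WT-M-0177 or WT-M-0178, 1 without Homo-M-0097 or Homo-M-0109, 6 without Homo-M-0189 and 5 without WT-M-0202. It was 0 with the range as a covariate and in late mice alone, where the log2 difference was 0.62 (adjusted p = 0.349) for *Il1a*, 1.49 (adjusted p = 0.438) for *Cd40* and 0.57 (adjusted p = 0.683) for *Il6*. Only 2 Homo males remain in late mice. In all mice the log2 differences were 0.60 for *Il1a*, 1.49 for *Cd40* and 0.90 for *Il6*, and why the calls were lost was not tested. In Het males 0 of the 71 passed, with 18 at an unadjusted p below 0.05 by limma (14.2% of all genes) and a median of 0.27 for the targets. In Homo against Het males 0 passed, with 1 at an unadjusted p below 0.05 by limma (3.85% of all genes) and a median of 0.01 for the targets. In Homo females 0 passed, 8 had an unadjusted p below 0.05 (3.49% of all genes), and the targets had a median log2 difference of 0.21, beside 0.00 over all genes, with 23 of 29 positive. In Het females *Vcam1*, an adhesion molecule and target gene, was the only one called (log2 difference 1.37, adjusted p = 0.0325). *Vcam1* was 3.30 to 5.09 FPKM in WT and 6.70 to 24.1 FPKM in Het females. Without Het-F-0206 and Het-M-0199 it was no longer called (log2 difference 1.08, adjusted p = 0.165), and the call was also lost without Het-F-0206 or Het-F-0220 alone or without any 1 of the 4 WT females.

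**Figure D4:**
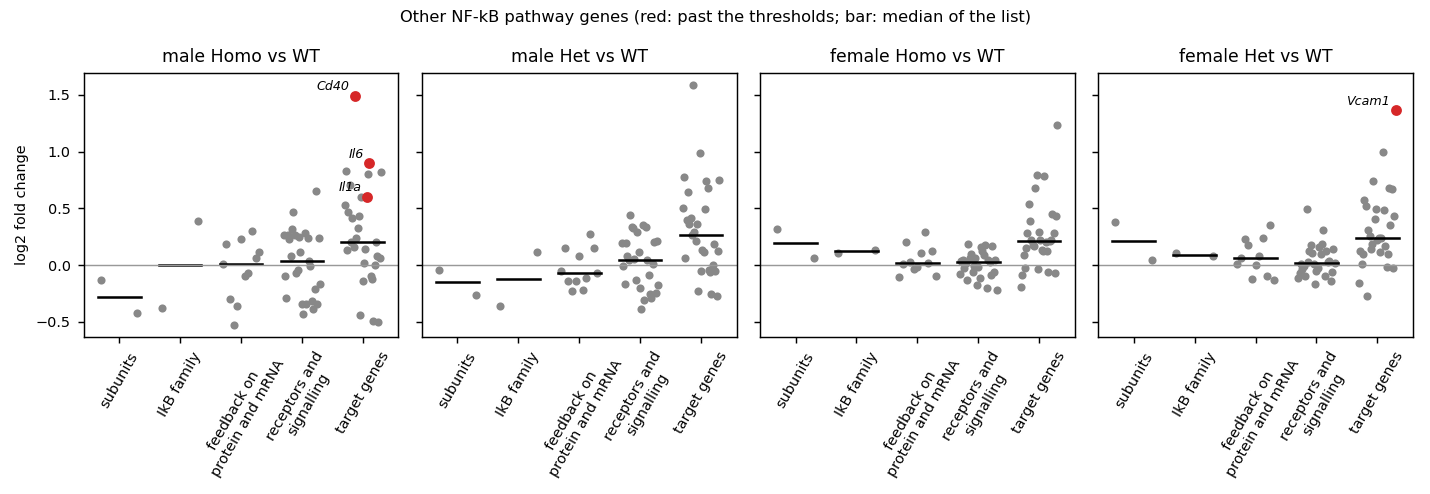
Log2 fold change (vertical axis) of the 71 other pathway genes tested, by list, in Homo and Het mice against WT mice of the same sex. Each point is a gene, red points passed the thresholds, and bars give the median of a list. *Cd40* (1.49), *Il6* (0.90) and *Il1a* (0.60) are red in Homo males and *Vcam1* (1.37) in Het females, and the medians of the target genes lie between 0.21 and 0.27.

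In early against late males 5 pathway genes rose and 2 fell out of 71 (9.86%, where 7.42% of all genes passed). The rises were in *Tnip2* (0.74 on the log2 scale), a partner of A20, in the kinase genes *Irak1* (0.65), *Chuk* (0.71) and *Ikbkb* (0.69), and in *Bcl2a1d* (0.81), which can share reads with its near-identical copies. The falls were in *Nfkbib* (-0.65), which encodes another IκB, and in the TNF receptor gene *Tnfrsf1a* (-0.59), whose call was lost in 7 of 10 alternatives and without any 1 of 9 of the 11 libraries. In Het males alone 0 of the 71 passed, with 13 at an unadjusted p below 0.05 by limma, beside 16.7% of all genes. *Chuk* and *Ikbkb* encode the kinases that mark IκB for destruction. The count of 7 was 0 without Het-M-0100, Het-M-0108 or Homo-M-0189, 1 without Homo-M-0093, 2 without Het-M-0210 or Homo-M-0190 and 4 without Homo-M-0109. Of 14 immediate early genes tested, the switch-on genes of many signals beside NF-kB, 1 fell (7.14%, beside 0.645% of all genes) and 0 rose (1.17% of all genes) in Homo males. It was *Klf2*, at 2.54 to 3.57 FPKM in WT and 0.326 to 1.77 FPKM in Homo males (log2 difference -1.69, adjusted p = 0.00988, limma), and in late mice alone its log2 difference was -1.25 (adjusted p = 0.325).

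Likeness in level was described by Pearson's r of log2 values over the 30 libraries, which share genotype, sex and number range, among 11590 genes with a mean of at least 1 FPKM. *Ier3* was most like *Gm15157* (r = 0.74), *Il1a* (0.73), *Tatdn1* (0.73), *Lcmt2* (0.73) and *Tnf* (0.72). *Nfkbiz* was most like *Wsb1* (r = 0.91), *Adamts16* (0.90), *Gm17259* (0.90), *Bhlhe41* (0.90) and *2410022M11Rik* (0.90). Among the 10 genes, r was 0.79 for *Nfkbiz* with *Tnf*, 0.76 for *Nfkbia* with *Nfkb1* 0.75 for *Nfkbia* with *Relb*, -0.79 for *Nfkbiz* with *Nfkb1* and -0.73 for *Nfkbiz* with *Nfkbia*.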

How the data were processed

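RNA of FACS-sorted microglia was sequenced by the authors (50 base reads), aligned to mm10 with OSA4 and quantified by RSEM on the Ensembl 84 gene model, and FPKM per gene and library were deposited by the authors without a logarithm. The submitters' processing notes also name DESeq2. Counts were not analysed here, so absolute depth is unknown and no counting error is given. Relative depth was estimated from the value steps of 14213 low genes. Groups came from the sample labels. The table has 6 further columns that match no listed sample, not used here. The paper reports that 6 samples, from all groups but the Het males, were left out for poor mapping and high duplication. Whether the 6 columns are those samples was not tested.

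Libraries were brought to 1 scale by median-of-ratios factors (from 11436 genes averaging 1 FPKM or more), 0.1 was added, and log2 values of the 16897 genes averaging 0.1 FPKM or more were fitted with limma 3.58.1 in R 4.3.3, with an intensity trend and 6 groups. Early and late numbers were compared in a fit of 11 libraries. The fits were tested on simulated data. Other steps used Python 3.11.15. As alternatives, the pseudocount, the filter and the scaling were changed, and array weights, fits of only the groups compared, the number range as a covariate, late mice alone, no fold change threshold, and leaving out libraries were tried. A fit of early against late numbers in Het males alone was added after the data were seen.

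The members and lists were chosen with earlier results of these data known. Named are the 10 members, *Bin1* and *Cx3cr1* as checks, list genes past the thresholds (at most 3 per list and comparison, by size) and the 5 genes most like *Ier3* and *Nfkbiz*. *S100a8*, *Tnfrsf1a*, *Cd79a*, *Cd79b*, *Ms4a1* and *Gm16175* fall outside this rule and were named after their values or location were seen. Locations are from GENCODE M21 on GRCm38, promoters from RefSeq.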

Additional observations from a re-analysis of the deposited data

Results flagged for a closer look

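Of 60 sets of member values (10 genes in 6 groups), 4 held a library that stood apart from the others of its group by Dixon's test, where chance gives about 1 in 20. *Ier3* was 5.91 FPKM in Homo-F-0201, with the nearest Homo female at 4.52. *Nfkbia* was 82.2 FPKM in Het-M-0199, the library whose *Bin1* level went against its label, with the nearest Het male at 59.0. *Nfkbie* was 27.2 FPKM in Het-M-0108, with the nearest at 24.3, and *Rel* was 17.5 FPKM in Homo-M-0093, with the nearest at 12.7.

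The mean of *Nfkbia* in Homo minus that in WT mice was -16.8 FPKM in males and 16.2 FPKM in females, with every Homo male below the WT mean of males and every Homo female above the WT mean of females. The male part was in the comparison that chose the genes, and the difference between the sexes was not tested.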

How the results depend on the processing

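None of the 10 genes passed in male Het or in female Homo or Het mice under any alternative or with any library left out. No called value changed its direction. In early against late mice the count of 1 (*Nfkbiz*) became 0 with no filter on low values and in Het males alone, and was 0 to 1 with 1 library left out. The median log2 difference of the 10 genes in Homo males lay between -0.02 and 0.11 under the alternatives and between -0.05 and 0.10 with 1 library left out.

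Counts of other pathway genes moved more. In Homo males (3) there was 1 with no filter, 7 with array weights, and 0 in a fit of only the groups compared, with the range as a covariate or in late mice alone, and 0 to 6 with 1 library left out. In Het males (0) it was 0 to 2 with 1 left out. In Homo females (0) it was 1 with array weights, without the pair of Het libraries, and in a fit of only the groups compared. In Het females (1) it was 0 with no filter, quantile normalization, without that pair, in a fit of only the groups compared or in late mice, 2 with array weights, and 0 to 1 with 1 left out. In early against late mice (7) it was 0 with no filter and in Het males alone, 13 with no fold change threshold, and 0 to 9 with 1 left out. The causes were not tested. Without scaling between libraries the median of all genes in early against late mice was 0.23 instead of 0.10, and 96.5% of calls were higher instead of 80.4% (67.4% after quantile normalization). In Homo males 76.95% were higher instead of 64.4%.

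No paired analysis was possible because each mouse number belongs to 1 mouse and the groups share none.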
